A study of Homo sapiens with 3 samples.

Results

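The mucin genes MUC1, MUC4, MUC13, MUC15, MUC16 and MUC20, whose proteins sit in the cell membrane, and MUC2, MUC5AC, MUC5B and MUC6, whose proteins form secreted gels, were taken as listed, which gave 10 of the 19974 protein-coding genes on chromosomes 1 to 22 and X. The cells were HCC1599, a line established from a triple-negative breast tumour, and their chromatin was immunoprecipitated and sequenced for H3K27ac, a histone acetylation found at active promoters and enhancers, and for H3K4me3, a histone methylation found at promoters. There were 3 samples, namely 1 library for each mark and 1 input without antibody, and the labels name no genotype, treatment or time that differs between them. The labels speak of cells positive for a MARCO transcript, and all samples share this line. With 1 library per mark there is no replicate check, so every value below describes these libraries and no test was run. The lists held 72894 H3K27ac and 32043 H3K4me3 peaks on the chromosomes used, and the number of reads behind them is unknown, so a stretch without a peak is one where none was called. Each peak carries the authors' score, which has no stated unit, starts at 30 and piles up at 3100, and is compared only within a list. Scores of 3100 or more were given to 3.71% of H3K27ac peaks and 33.9% of H3K4me3 peaks. Epithelial markers carried both marks at the starts of KRT18, KRT19, EPCAM and CDH1, and KRT8 had H3K27ac alone at its listed start with 3 H3K4me3 peaks in the gene, while 0 of 4 immune, 0 of 3 fibroblast and 0 of 3 endothelial markers had both, against 57.7% of all protein-coding genes. H3K4me3 alone lay at the starts of the monocyte marker CD14, with a score of 113, and the fibroblast marker COL1A1, with a score of 2138. Some markers with neither mark at the start had peaks in the gene. The immune marker PTPRC held 2 H3K27ac peaks and 1 H3K4me3 peak. The fibroblast marker COL1A2 and the endothelial markers PECAM1 and VWF held 1, 3 and 7 H3K27ac peaks and no H3K4me3.

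Mucins are long proteins whose serine, threonine and proline repeats are covered with sugar chains attached in the Golgi. Membrane mucins such as MUC1 carry a transmembrane segment and a cytoplasmic tail and form the surface layer of the apical membrane of epithelia, the breast duct among them. Gel-forming mucins are joined end to end through cysteine-rich domains and make the mucus of airway, stomach and intestine. MUC1, the antigen measured as CA 15-3, and MUC16, the antigen measured as CA125, are used as tumour markers. Mucin genes hold exons of long tandem repeats, and whether short reads could be placed in them was not tested.

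The bases just before 4 of the annotated starts are shown because these starts differ in their marks while their CpG content is alike or low. Each is the 250 bases before the start, 5′ to 3′ on the strand of the gene, from RefSeq in GRCh38.p14. Capitals mark GGGCGG, the GC box read by SP1-family factors, in either orientation (CCGCCC on the other strand), and TATAAA, the TATA box.
MUC1 (chr1:155192916-155193165, minus strand): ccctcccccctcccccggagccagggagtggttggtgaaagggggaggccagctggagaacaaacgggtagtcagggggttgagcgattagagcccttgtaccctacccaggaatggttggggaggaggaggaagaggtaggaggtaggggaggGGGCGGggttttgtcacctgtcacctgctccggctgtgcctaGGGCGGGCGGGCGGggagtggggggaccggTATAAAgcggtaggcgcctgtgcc
MUC4 (chr3:195811930-195812179, minus strand): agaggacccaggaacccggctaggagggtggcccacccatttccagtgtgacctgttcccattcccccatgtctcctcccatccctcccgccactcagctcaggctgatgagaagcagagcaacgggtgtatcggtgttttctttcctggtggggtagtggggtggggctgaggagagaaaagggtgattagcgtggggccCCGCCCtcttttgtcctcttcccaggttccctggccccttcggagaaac
MUC16 (chr19:9065752-9066001, minus strand): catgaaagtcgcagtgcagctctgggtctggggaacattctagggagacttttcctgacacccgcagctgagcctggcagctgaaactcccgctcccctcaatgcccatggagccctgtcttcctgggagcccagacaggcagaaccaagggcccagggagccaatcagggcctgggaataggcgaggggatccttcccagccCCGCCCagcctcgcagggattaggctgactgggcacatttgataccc
MUC2 (chr11:1074624-1074873, plus strand): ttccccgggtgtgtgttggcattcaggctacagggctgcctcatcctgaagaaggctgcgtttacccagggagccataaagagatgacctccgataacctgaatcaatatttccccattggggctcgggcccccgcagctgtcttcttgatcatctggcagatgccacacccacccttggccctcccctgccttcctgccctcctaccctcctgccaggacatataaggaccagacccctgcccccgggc
Within the 300 bases from 250 before to 50 after the start, MUC1 held 4 matches to GGGCGG, 3 of them overlapping, and 1 TATAAA that began 24 bases before the start. MUC4, MUC16 and MUC2 held 1 match to GGGCGG each, that of MUC2 lying after the start and so outside the stretch shown, and none to TATAAA. Of 15812 protein-coding genes with a listed start, 58.5% held GGGCGG and 9.64% held TATAAA in the same window. STAT-type TTCNNNGAA, found in 6.98% of promoters, occurred once in MUC4. AP-1-type TGANTCA, found in 5.76%, occurred once each in MUC2 and MUC13. E-box CANNTG, found in 64.5%, had 1 to 4 matches in all 5 members with a listed start. Hypoxia-type ACGTG, found in 23.7%, had 1 match in MUC4. All motifs were read on both strands, and a match is a run of letters and not a site of binding.

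CpG content at the start of MUC1, which was marked, was close to that of MUC4, which was not. The ratio of observed to expected CpG was 0.418 at MUC1, 0.416 at MUC4, 0.397 at MUC13, 0.334 at MUC2 and 0.278 at MUC16, all below the median of 0.763 over the 15812 promoters. MUC1, MUC4 and MUC13 fell in the second lowest of 4 equal groups of promoters by this ratio, where 76.1% of genes had H3K4me3 at the start. That group runs from 0.395 to 0.763, and these genes lay at its lower edge, at percentiles 26.0, 26.0 and 25.1. Its share is thus not a close reference for them. MUC2 and MUC16 fell in the lowest group, where 22.4% had H3K4me3 at the start. Of these 5 members only MUC1 carried H3K4me3 at a listed start. MUC13 stood apart in base content, with 41.0% G and C against 62.0% at MUC4, MUC16 and MUC2 and 65.7% at MUC1.

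Marks at the start were counted where a peak overlapped the 1 kb either side of a RefSeq start by at least 1 bp. MUC15, MUC20, MUC5AC, MUC5B and MUC6 were placed by either annotated end of the gene, as were other genes without a listed start. H3K4me3 lay at 4 of the 10 mucin genes, namely MUC1, MUC15, MUC20 and MUC5B, against 70.0% of all protein-coding genes. H3K27ac lay at 5 of 10, these 4 and MUC2, against 60.0%. Both marks were thus present at 4 of 10, against 57.7%, H3K4me3 alone at 0, against 12.3%, H3K27ac alone at MUC2, against 2.27%, and neither at MUC4, MUC13, MUC16, MUC5AC and MUC6, against 27.8%. By class, both marks were at 3 of 6 transmembrane and 1 of 4 gel-forming members. The peak at MUC2 was weak, 629 bp wide with a score of 48.7, and without peaks scoring under 100 the count for H3K27ac was 4. In a start window of 2.5 kb the count for H3K27ac was 7, with MUC6 and MUC16 added, and that for H3K4me3 stayed at 4. The share of all protein-coding genes was not counted in that window.

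**Figure D1:**
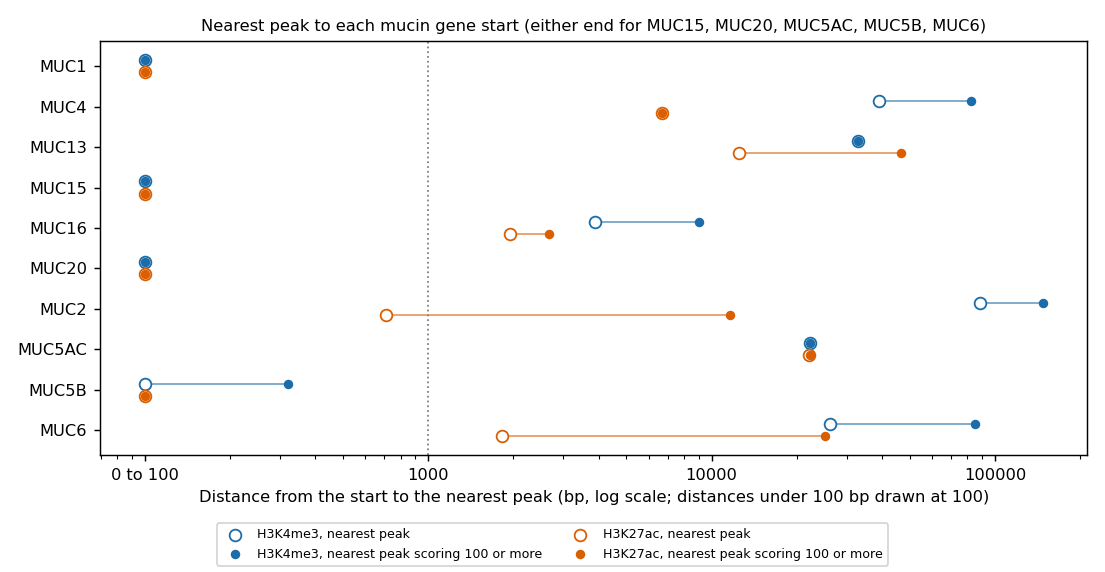
Distance in bp, on a log axis, from each mucin gene start to the nearest H3K4me3 peak (blue) and H3K27ac peak (orange), for all peaks (open circles) and for peaks scoring 100 or more (filled circles). The dotted line is 1000 bp. MUC1, MUC15, MUC20 and MUC5B have both marks left of the line, and the H3K4me3 peak nearest to MUC2 is 88252 bp away.

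MUC1, the membrane mucin of ductal epithelium, was the most densely marked member. The gene spans chr1:155185824-155192915 and 7092 bp, and peaks covered 56.0% of it with H3K27ac and 53.9% with H3K4me3, percentiles 95.1 and 93.8 of protein-coding genes. Over its start lay an H3K4me3 peak of 6111 bp (155191701 to 155197811), wider than all but 3.50% of its list, and an H3K27ac peak of 4349 bp (155191738 to 155196086) that lay wholly under it. Both scored 3100. The annotated start of THBS3-AS1, an antisense RNA gene noticed after its position was seen, lies in the same peaks, so they cannot be given to MUC1 alone. At the far end of the gene a second pair was found, an H3K27ac peak of 5078 bp with a score of 1714 and an H3K4me3 peak of 2606 bp with a score of 199, and a stretch of 3166 bp between the H3K4me3 peaks carried none. Most of each start peak lay outside the gene, so most of the share covered came from this far pair. Its H3K4me3 peak made up 2606 of the 3821 bp covered. Its H3K27ac peak began outside the gene, at 155183541, and also overlapped TRIM46, a gene named after its position was seen.

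The neighbourhood of MUC1 was also densely marked. Within 50 kb of the span there were 8 further H3K27ac and 9 further H3K4me3 peaks, and peaks covered 42.7% and 33.6% of the window, percentiles 99.2 and 99.3. Many of these belong to other starts. The widest, an H3K27ac peak of 19524 bp and an H3K4me3 peak of 18566 bp, held the starts of EFNA1, an ephrin ligand gene, and DPM3, a subunit gene of dolichol-phosphate mannose synthase, and only partly reached into the window. MTX1LP, a pseudogene copy in the window noticed after its position was seen, had 2 H3K27ac peaks in or within 1 kb of it, and reads may be shared with its parent gene there.

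MUC16, the gene of CA125, carried neither mark at its listed starts and broad peaks inside the gene. It spans chr19:8848844-9065751, 216908 bp, and is read toward lower coordinates. RefSeq lists starts at 9065751 and 9010409, and neither had a peak within 1 kb. An H3K4me3 peak of 5630 bp with a score of 3100 lay at 9051124 to 9056753, 8998 bp inside the gene from its first start, and followed a peak of 1796 bp with a score of 261 after 7 bp without a call. Around both lay an H3K27ac peak of 13776 bp (9048293 to 9062068) with a score of 3100, wider than all but 0.189% of its list. No start in the table lay in any of the 3.

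On the far side of the MUC16 start, outside the gene, H3K27ac lay in 4 peaks, the weakest with a score of 47.6. The others, of 3752, 5466 and 3113 bp, had scores of 3100, 2202 and 634 and lay 2668, 6885 and 13331 bp from the gene, and overlapped no annotated gene. H3K4me3 there was limited to 2 weak peaks with scores of 53.2 and 57.9, which covered 32.0% of the 3752 bp peak and 16.1% of the 5466 bp peak. The rest of the gene was nearly empty. H3K27ac had 4 peaks with scores of 31.8 to 69.3 below the broad domain and 1 of 34.4 above it, and the longest stretch without H3K27ac ran for 157068 bp. Peaks near the lower end, at 15526 and 15876 bp from the gene, held the starts of ZNF558, a zinc finger gene, and MBD3L1, related to the methyl-CpG binding protein MBD3.

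MUC15, a short membrane mucin first described in milk, had both marks in broad peaks at its higher-coordinate end. This is its start by general knowledge, since the gene is read toward lower coordinates. The span is chr11:26559032-26572263, 13232 bp. An H3K27ac peak of 7981 bp (26569116 to 26577096) and an H3K4me3 peak of 5950 bp (26568571 to 26574520) both scored 3100, and the H3K27ac peak was wider than all but 0.978% of its list. They covered 28.2% and 33.2% of the gene together with weaker peaks. H3K27ac also lay at and past the far end, in peaks of 1637 and 2627 bp with scores of 192 and 747, and 8833 and 11557 bp beyond the start, with scores of 363 and 297. H3K4me3 at these places was weak, at 102 or less. MUC15 lies within the span of ANO3, an anoctamin gene that runs from 26188808 to 26663289, so position alone does not say which gene these peaks serve.

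MUC20, a membrane mucin known to bind the receptor MET, had both marks at its lower-coordinate end, its start by general knowledge. The gene spans chr3:195720978-195733551, 12574 bp. H3K27ac came as peaks of 1488 and 670 bp with scores of 1451 and 1734, and H3K4me3 as peaks of 1252 and 718 bp with scores of 746 and 515. The gaps between them, 192 bp for H3K27ac and 116 bp for H3K4me3, overlapped. These H3K4me3 scores were below the pile-up at 3100 that the start peaks of MUC1, MUC15 and MUC5B reached, and 47.9% of the list scored at least 746. The rest of the gene had no peak. A near-copy, MUC20P1, is annotated on the same chromosome and had 0 peaks of either mark within 1 kb, and how reads that match both were placed is not stated.

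MUC4, the large membrane mucin that associates with ERBB2, lay 13219 bp from MUC20 and was nearly free of marks. It spans chr3:195746771-195811929, 65159 bp, and is read toward lower coordinates, so that the ends of MUC4 and MUC20 face each other. Its start had no peak, the nearest H3K27ac being 6704 bp inside the gene, with 1642 bp and a score of 136, and the nearest H3K4me3 39035 bp away. Inside the gene the only H3K4me3 peak, of 721 bp with a score of 43.6, lay by the far end. Of the peaks within 50 kb, 3 H3K27ac and 4 H3K4me3 peaks also counted for MUC20, and the strongest were those at the MUC20 start. Upstream of MUC4 there were 3 H3K27ac peaks with scores of 142, 38.1 and 52.2.

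MUC13, a membrane mucin of the gut, held 1 H3K27ac peak of 672 bp with a score of 45.1 and no H3K4me3 peak in its span at chr3:124905442-124934751. Among protein-coding genes 5.0% had H3K27ac but no H3K4me3 in the span, and MUC2 and MUC6 shared this state. The nearest H3K4me3 to its start, 32987 bp away, and the strongest, with a score of 3100 and 17171 bp from the gene, both lay in ITGB5, an integrin subunit gene, and both held an ITGB5 start.

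**Figure D2:**
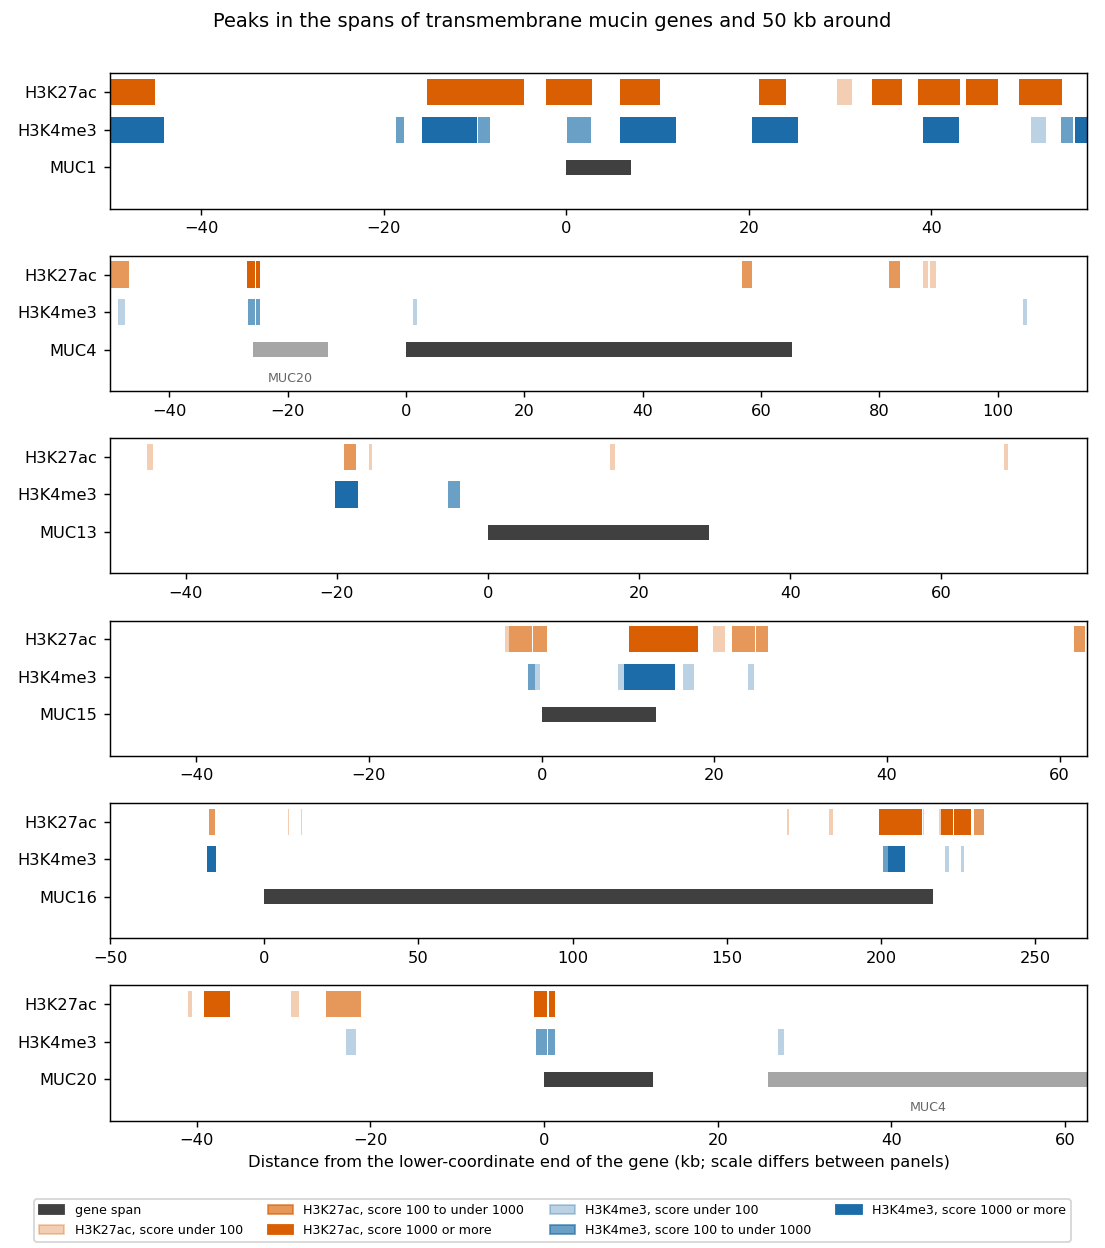
Peaks of H3K27ac (orange) and H3K4me3 (blue) in the span of each transmembrane mucin gene (dark bar) and 50 kb around, by distance in kb from the lower-coordinate end of the gene; stronger colour stands for a higher score in the list. MUC1 sits among peaks on all sides, MUC16 has its 13776 bp H3K27ac peak inside the gene, and MUC4 and MUC13 have only weak peaks in the gene.

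The gel-forming mucins lie side by side in the order MUC6, MUC2, MUC5AC and MUC5B within chr11:1012823-1262172, with gaps of 38155, 47444 and 21927 bp, and MUC5B was the member with marks of high score. MUC5B, the main gel former of airway and salivary mucus, spans 1223066 to 1262172. At 320 bp from its lower-coordinate end, its start by general knowledge, began an H3K4me3 peak of 5451 bp (1223386 to 1228836) with a score of 3100. H3K27ac peaks of 1067 and 4441 bp with scores of 140 and 3100 lay over the same stretch, 100% and 98.6% under H3K4me3. Weak peaks of both marks, with scores of 40.5 for H3K4me3 and 38.6 and 105 for H3K27ac, lay at the far end. H3K27ac covered 20.2% of the gene and H3K4me3 16.5%, percentiles 82.7 and 77.6.

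MUC5AC, the gel former of the stomach surface and airway goblet cells, had no peak of either mark in its span at 1157953 to 1201138. It was the only member without H3K27ac in the gene, where 71.5% of protein-coding genes have a peak. Its nearest H3K4me3 was the MUC5B start peak, 22248 bp away, and all 6273 bp of H3K4me3 in its window came from MUC5B. MUC2, the gel former of the intestine, had no H3K4me3 peak in its span (1074874 to 1110508) or within 50 kb of it, where 89.4% of protein-coding genes have one. Besides the weak peak by its start it held H3K27ac peaks of 562 and 826 bp with scores of 39.1 and 67.9. MUC6, the gel former of gastric glands, spans 1012823 to 1036718 and held a single H3K27ac peak of 577 bp with a score of 49.2. The single H3K4me3 peak in its window, with a score of 35.4, lay in AP2A2, an adaptor protein gene named after its position was seen. Between MUC6 and MUC2 the strongest H3K27ac peak had 1421 bp and a score of 235, without H3K4me3.

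**Figure D3:**
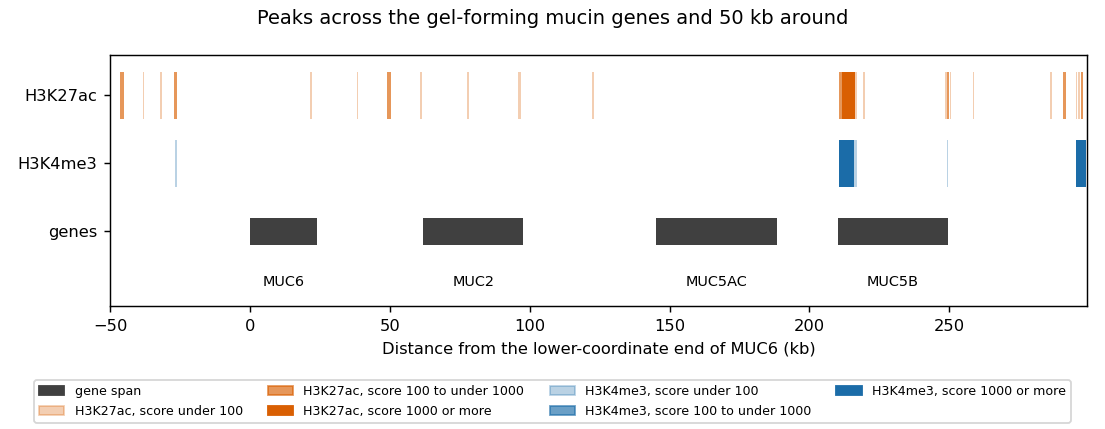
Peaks of H3K27ac (orange) and H3K4me3 (blue) along the gel-forming mucin genes and 50 kb around, by distance in kb from the lower-coordinate end of MUC6; stronger colour stands for a higher score. From MUC6 through MUC5AC no H3K4me3 peak is seen, and the strong block of both marks is the 5451 bp H3K4me3 peak with its H3K27ac at the start of MUC5B.

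Between the classes, peaks of both marks covered more of the span and 50 kb around at transmembrane members by the medians, but the ranges overlapped and the difference was not tested, since genes are not replicates and the gel-forming members share peaks. H3K27ac covered a median of 9.79% of the span and 50 kb around at the 6 transmembrane genes (2.95% at MUC13 to 42.7% at MUC1) and 5.77% at the 4 gel-forming genes (3.82% at MUC2 to 9.83% at MUC5B). The median over all protein-coding genes was 5.18%. H3K4me3 covered a median of 3.80% (2.74% at MUC4 to 33.6% at MUC1) and 2.46% (none at MUC2 to 7.30% at MUC5B), both below the 5.10% of all protein-coding genes. The difference between medians was 4.03 percentage points for H3K27ac and 1.34 for H3K4me3. Leaving out MUC5B raised them to 4.22 and 3.26, and leaving out MUC1 lowered them to 3.7 and 1.17.

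By number of H3K27ac peaks the class medians were equal as listed, and their order depended on the setting. Both were 7.5 peaks in the window, against 6.0 over all protein-coding genes. Among peaks scoring at least 100 they were 5.0 at transmembrane and 2.5 at gel-forming members, and with peaks less than 500 bp apart merged they were 5.0 and 7.0. The medians for H3K4me3 as listed were 5.0 and 1.5, against 3.0. Counted once each, the windows of the transmembrane members held 44 H3K27ac and 29 H3K4me3 peaks in 857 kb, and those of the gel-forming members 24 and 5 in 349 kb. This comes to 51.3 and 68.7 H3K27ac peaks and 33.8 and 14.3 H3K4me3 peaks per Mb, against 32.5 and 15.5 over the joined windows of all protein-coding genes. Without MUC1 the transmembrane windows held 45.3 H3K27ac and 24.0 H3K4me3 peaks per Mb. The gel-forming region had the higher density of all listed H3K27ac peaks but weaker and narrower ones, with a median score of 64.3 and width of 760 bp against 167 and 1620 bp. Among peaks scoring at least 100 the order turned round, with 31.5 H3K27ac peaks per Mb in transmembrane windows, or 24.0 without MUC1, and 22.9 in gel-forming windows. The gel-forming region was covered less by H3K27ac, at 6.46% against 13.7%, or 9.51% without MUC1. Over the joined windows of all protein-coding genes H3K27ac covered 4.96%, below both classes. Peaks scoring at least 100 came to 13.9 per Mb there, also below both. The median score and width there were 72.0 and 930 bp, above the gel-forming values and below the transmembrane ones. Of the H3K27ac peaks, 43.2% in transmembrane and 33.3% in gel-forming windows overlapped H3K4me3, near the 39.0% around all protein-coding genes.

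Peaks of high score that overlapped the gene by at least 1 bp were found in both classes. At MUC1 the peaks of both marks that scored 3100 lay mostly outside the gene, as did the H3K27ac peak at MUC15. H3K27ac reached a score of 100 in the spans of 6 of 10, against 58.5%. H3K4me3 did so in MUC1, MUC15, MUC16 and MUC20 of the transmembrane class and in MUC5B of the gel-forming class, 5 of 10 against 72.3% of protein-coding genes. A score of 3100 was reached by H3K27ac in 4 of 10 spans, against 10.3%, and by H3K4me3 in 4 of 10, against 56.1%. Both marks reached 3100 in the spans of MUC1, MUC15, MUC16 and MUC5B, 4 of 10 against 9.61%. Any H3K27ac peak lay in the span of 9 members and any H3K4me3 peak in 6, against 71.5% and 74.5%, and with 50 kb around the counts were 10 and 9, against 91.7% and 89.4%. MUC4, the sixth with H3K4me3, had it only at a score of 43.6.

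**Figure D4:**
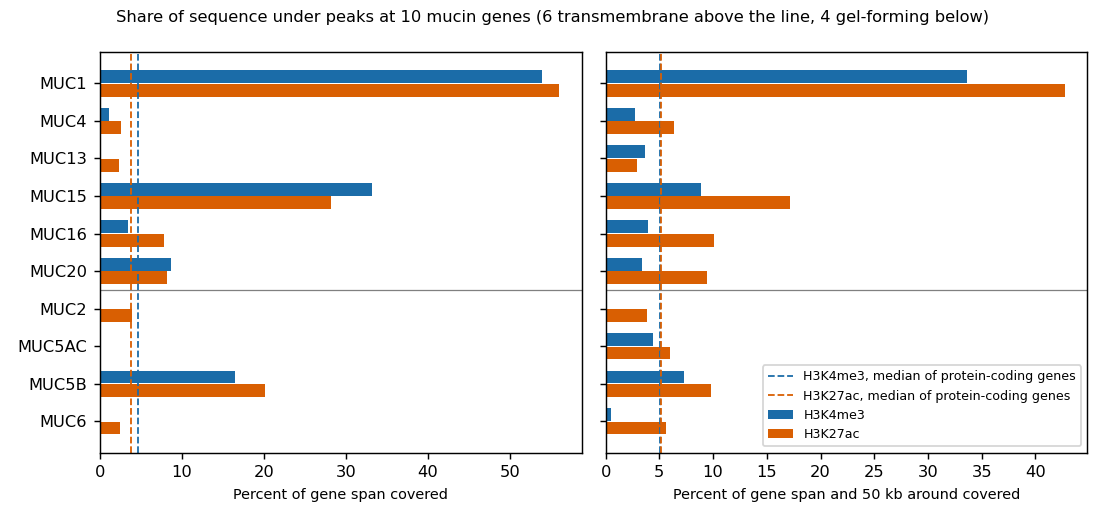
Percent of the gene span (left) and of the span with 50 kb around (right) covered by H3K4me3 (blue) and H3K27ac (orange) peaks at each mucin gene, with dashed lines at the medians of all protein-coding genes, 4.69% and 3.74% of the span. MUC1 is highest on both sides, MUC15 and MUC5B stand above the lines, and MUC13, MUC2, MUC5AC and MUC6 have no H3K4me3 in the span.

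Other genes of the pathway were read in the same way, and the shares of all protein-coding genes are 57.7% with both marks, 12.3% with H3K4me3 alone, 2.27% with H3K27ac alone and 27.8% with neither. Of 13 other mucin and mucin-like genes, 3 had both marks at the start, namely MUC21, with H3K27ac at a score of 31.9 just outside the gene, CD164, a sialomucin with scores of 2582 and 3100, and MCAM, a cell adhesion molecule with 354 and 3100. MUCL1, a small breast mucin-like gene, had H3K27ac alone with a score of 54.0, and 9 had neither, among them the intestinal membrane mucins MUC3A, MUC12 and MUC17 and the salivary MUC7. Of these 9, 4 had a peak elsewhere in the gene. Enzymes that start mucin sugar chains, the GALNT family, had both marks at 9 of 17 (52.9%), near the 57.7% of all genes. GALNT1, GALNT2, GALNT3 and GALNT4 were among these, with H3K27ac scores of 336, 1280, 2390 and 631. GALNT5, GALNT13, GALNT16 and GALNT18 had H3K4me3 alone, GALNT15 a weak H3K27ac peak alone, and GALNT8, GALNT9 and GALNT11 neither at the start. Elsewhere in the gene GALNT11 held 8 H3K27ac and 4 H3K4me3 peaks and GALNT9 held 2 H3K27ac peaks. Enzymes that extend the chains had both at 6 of 12, also near that share. C1GALT1, which makes the core 1 structure, and GCNT1, which branches it, had H3K27ac scores of 726 and 552, while C1GALT1C1, the chaperone of C1GALT1, had H3K4me3 alone. GCNT3, B3GNT6 and ST6GALNAC1, enzymes of mucus-secreting epithelium, had neither at the start, with 1 H3K4me3 peak elsewhere in B3GNT6 and 1 H3K27ac peak in ST6GALNAC1. With scores of at least 100 the count for extension enzymes fell to 3, since ST3GAL1, ST3GAL4 and ST6GALNAC2 had H3K27ac scores of 90.1, 96.9 and 42.6.

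Factors of mucus-secreting cells had both marks at 0 of 11 starts, against 57.7% of all protein-coding genes, H3K4me3 alone at FOXA3 and AGR2, against 12.3%, and neither at 9, against 27.8%. Of these 9, 2 had a peak elsewhere in the gene. FOXA3, a forkhead transcription factor, had an H3K4me3 peak of 4271 bp with a score of 3100, and AGR2, a disulfide isomerase needed to fold intestinal mucin, one with a score of 62.3. SPDEF, the transcription factor of goblet cells, had neither at its listed start but 4 H3K27ac peaks in its span, and AGR3, a relative of AGR2, and the trefoil factor genes TFF1 and TFF2 had no peak in the gene. Partners of the membrane mucins had both marks at 6 of 8, against the same 57.7%. EGFR, ERBB2, ERBB3 and CTNNB1, which bind MUC1 or MUC4, were among these, with H3K27ac scores of 2715, 253, 3100 and 2285. MSLN, the binding partner of MUC16 at the cell surface, had H3K27ac alone with a score of 223, and MET, the partner of MUC20, H3K4me3 alone with a score of 3100.

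**Figure D5:**
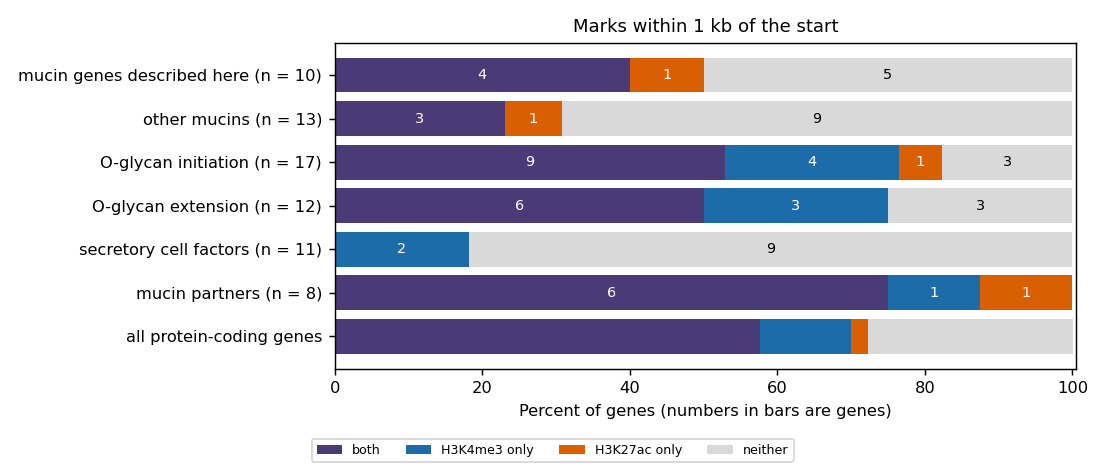
Percent of genes with both marks, H3K4me3 only, H3K27ac only or neither within 1 kb of the start, for the 10 mucin genes, 5 lists of related genes and all protein-coding genes; numbers in the bars are genes. Both marks are at 4 of 10 mucin genes, 9 of 17 initiating enzymes, 0 of 11 secretory cell factors and 57.7% of all protein-coding genes.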

How the data were processed

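H3K27ac and H3K4me3 were profiled in HCC1599 with 1 library each, and the deposited files are 1 peak list per mark with positions and a score per peak. The authors' score has no stated unit in the sources used here. The submitters' processing notes name Bowtie2, MACS 1.4 and hg38, with no parameters, and by their names the lists were called against the input. Depth and local copy number cannot be read from peak lists, and the input signal was not analysed here. Only peaks of chromosomes 1 to 22 and X entered, with positions counted from 1. Gene spans and starts came from RefSeq tables of GRCh38.p14, the same build family. Starts were listed for 15812 of 19974 protein-coding genes and 5 of the 10 members, and either end of the gene stood in for the rest, which counts far ends too. A peak counted where it overlapped by at least 1 bp. Percentiles are ranks among all protein-coding genes, ties at their midpoint.

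The members and lists were chosen with earlier results of these data known. All 10 members are named, with up to 3 neighbours whose start lies in a peak of the window, by score, and up to 4 genes per state of each list; names outside this rule are marked or stand for small counts, and some genes that it takes are not reported here. MUC20 was classed as transmembrane as a cell-surface mucin. Alternatives were a score of at least 100, start windows of 500 bp and 2.5 kb, flanks of 25 and 100 kb, peaks less than 500 bp apart merged, peak midpoints, and MUC20 left out; either end for every gene, any peak in the span, and MUC1 or MUC5B left out were added after seeing the data. Protein measures were planned and not run. Python 3.11.15, numpy 2.4.6, pandas 2.3.3 and bedtools 2.31.1 were used. Window counts checked against bedtools differed at 0 genes, and all 200 simulated peaks planted at starts were recovered. These peaks were placed inside the start window, so their recovery checks the counting and not whether the starts used are right.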

Additional observations from a re-analysis of the deposited data

How the results depend on the processing

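Of 85 values recomputed for 18 results, 66 stayed within 1.5 times the main value and 19 moved further. The differences between the classes in coverage did not change sign, and the other results are counts or their medians and cannot. The order of the classes by H3K27ac peaks in the window, equal at 7.5, did change: transmembrane and gel-forming medians were 5.0 and 2.5 with scores of at least 100 and 5.0 and 7.0 with close peaks merged. With scores of at least 100, the gel-forming median of H3K27ac peaks in the window fell from 7.5 to 2.5 and in the span from 1.5 to 0, the H3K4me3 window medians from 5.0 to 2.0 (transmembrane) and from 1.5 to 0.5 (gel-forming), and extension enzymes with both marks from 6 to 3. With flanks of 25 kb, gel-forming window medians were 4.5 (H3K27ac) and 0.5 (H3K4me3), and the class differences in coverage 6.63 and 4.56 percentage points. With flanks of 100 kb, the H3K27ac medians were 14.0 in both classes, the gel-forming H3K4me3 median 3.5 and the H3K4me3 difference 2.28. By peak midpoint, the transmembrane span medians of both marks fell from 2.0 to 1.0, as did that of H3K4me3 with close peaks merged. A start window of 2.5 kb gave 1 secretory cell factor with both marks in place of 0. Counting peaks anywhere in the gene or 1 kb from it gave 9 mucins with H3K27ac in place of 5, and leaving out MUC5B gave an H3K4me3 difference of 3.26. The cause of these moves was not tested beyond what each setting leaves out or adds. Both marks at the start were found at 3 to 4 members over the settings that look at the start, and both marks anywhere in the gene or 1 kb from it at 6. No paired analysis was possible because each mark has 1 library and no result comes from a test. Depth is unknown, so absent peaks are not absent marks.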

Other observations

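MUC16 belonged to a small set of genes when its state was counted after it had been seen. Neither mark at a start together with peaks of both marks scoring 3100 or more that overlapped the span was found at 26 of 19974 protein-coding genes (0.13%). The set also held NOTCH4, a Notch receptor gene, and FOXP2, a forkhead transcription factor, with 1 and 12 H3K27ac peaks in the span. NOTCH4 and FOXP2 were picked from the 26 for being well known. Others in the set held many peaks, such as RAD51B with 59 H3K27ac and 17 H3K4me3 peaks and NCOA2 with 17 and 8. The state depends on which starts are listed, and whether a start is missing from the annotation was not tested, for MUC16 or the others.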
